A study of Mus musculus with 12 samples.

Results

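The 36 genes described here make DNA or supply its building blocks: the 6 subunits of the MCM helicase, 4 origin licensing factors, 6 factors that activate the helicase, 5 polymerase and primase subunits, the sliding clamp with its 5-subunit loader, the 3 subunits of replication protein A, 2 enzymes that join lagging-strand fragments, and 4 enzymes of deoxynucleotide supply. They were chosen by symbol, and all 36 were found in both deposited count tables among 23420 symbols. Embryonic stem cells of the mouse line R1 were kept on gelatin with LIF and received siRNAs to Krr1, which helps to assemble small ribosomal subunits, or control siRNAs for 48 h. Each lysate was split between RNA-seq and ribosome profiling, in which the mRNA fragments under ribosomes (footprints) are sequenced. The 6 lysates are called siKrr1 A, C and D after the letters of the tables, and siGFP, siNC and Lipo for the controls. The labels state 3 different siRNAs per condition, although the name Lipo states none, and do not say whether the samples were separate cultures, so p-values measure the spread between these samples only.

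Replication starts when the origin recognition complex, Cdc6 and Cdt1 load the MCM helicase onto DNA in G1. In S phase Cdc45 and the GINS complex join the helicase, primase and polymerase alpha lay down primers, and replication factor C places the PCNA clamp that holds polymerases on the template. Ribonucleotide reductase, thymidylate synthase and thymidine kinase keep deoxynucleotides in supply. Most of these genes are textbook targets of E2F transcription factors and peak in G1 and S phase, and embryonic stem cells, with their short G1, express them at high levels.

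The RNA libraries held 31318772 to 37673764 counts on genes in siKrr1 cells and 35795829 to 39670139 in controls, and the footprint libraries 21615934 to 28911254 in siKrr1 cells and 22317119 to 28026444 in controls. All 36 genes passed the filter on low counts in both assays. The lowest count was 455, for Gins3 footprints in siKrr1 A. As a check of the labels, siKrr1 A, C and D held 21.7%, 37.3% and 41.5% of the mean Krr1 RNA of the controls and 18.9%, 37.5% and 31.4% of their mean Krr1 footprints. Of 9 embryonic stem cell markers, 3 (Nanog, Zfp42 and Esrrb) fell in RNA, and their summed level was 6920 to 8170 CPM (counts scaled to the size of each library) in siKrr1 libraries and 8440 to 8600 CPM in controls. Summed RNA of 8 fibroblast markers was 6.21 to 9.32 CPM in siKrr1 libraries and 8.12 to 9.05 CPM in controls, with Col3a1, Postn and Lum at 0 counts in every RNA library. For 5 trophectoderm markers it was 10.2 to 11.3 CPM in siKrr1 libraries and 11.1 to 13.3 CPM in controls, and of these Krt7 rose while staying under 1 CPM in every library. For 5 primitive endoderm markers it was 3.49 to 4.01 CPM in siKrr1 libraries and 3.46 to 4.37 CPM in controls. The part of the marker changes in those of the replication genes was not tested.

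Of this machinery, 7 of the 36 genes fell in RNA or footprints of Krr1 knockdown cells, and the other 29 were not called in either. Of all genes tested, 2.11% were called lower in RNA and 2.68% in footprints. The share called lower in either assay, which is what the 7 would be set beside, was not computed. By single assay, 3 of the 36 were called lower in RNA and 6 in footprints. In both assays 2 were called lower, beside 1.34% of all genes tested in both. In RNA, Tk1, Pcna and Rrm2 fell to 74.6%, 78.3% and 79.7% of the control mean. In footprints, Tk1, Rrm2, Cdc6, Cdc45, Pola1 and Mcm4 fell, to between 74.4% and 85.1%. None of the 36 rose in either assay. In these bulk libraries, fewer cells in S phase and less RNA per cell cannot be told apart.

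Of the 36 genes, 3 were called lower in RNA and 0 higher (edgeR's quasi-likelihood test with p-values adjusted by Benjamini-Hochberg over all 14038 genes tested, threshold 0.05), where 2.11% of all genes tested were called lower and 2.69% higher. In footprints 6 were called lower and 0 higher, where 2.68% of the 13287 genes tested were lower and 3.39% higher. At an unadjusted p under 0.05 (edgeR), 11 were lower in RNA and 23 in footprints, where 9.83% and 10.5% of all genes tested were lower at that level (20.9% and 22.5% in either direction), and 0 members were higher in either assay. Counted in either direction, the 11 in RNA became 6 without siNC or without Lipo. The 23 in footprints became 13 with libraries scaled by totals alone, 12 without siNC and 11 without Lipo. DESeq2 called 5 lower in RNA and 7 in footprints, and 0 higher. It also called more of all genes: 536 lower and 666 higher in RNA, beside 296 and 378 with edgeR. In footprints it called 525 lower and 632 higher, beside 356 and 450. The median log2 fold change over the 36 genes was -0.11 in RNA and -0.14 in footprints, beside 0.00 and 0.01 over all genes tested. It was below 0 for 30 of the 36 genes in RNA and 34 in footprints, beside 50.2% and 48.5% of all genes. The 3 siKrr1 libraries all lay below the 3 controls for 11 of the 36 genes in RNA, beside 13.4% of all genes, and for 25 in footprints, beside 13.6%. For no member did they all lie above the controls. Both sets of calls depended on the libraries used. Without siGFP, siNC or Lipo 0 members were called in RNA, and 1 without siKrr1 A, 6 without siKrr1 C and 3 without siKrr1 D. In footprints 3, 1 and 1 were called without siGFP, siNC or Lipo, and 6, 7 and 5 without siKrr1 A, C or D. Rrm2 footprints were called in each of these fits. The number of all genes called lower moved too. In RNA it was 133, 539 and 166 without siKrr1 A, C and D, beside 296 with all libraries. In footprints it was 359, 546 and 256, beside 356.

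**Figure D1:**
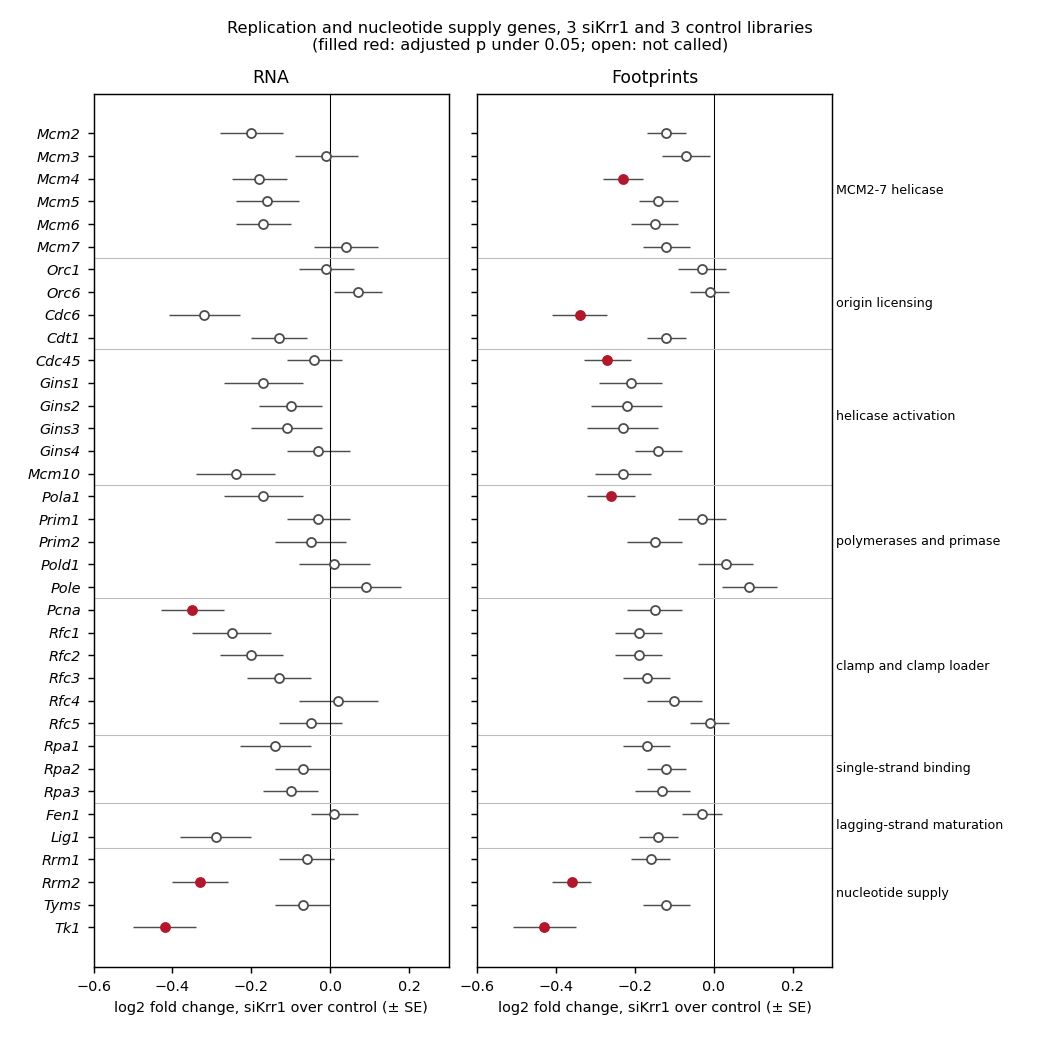
Log2 fold change (siKrr1 over control, horizontal axis, with its SE) of each gene in RNA (left) and footprints (right), ordered by role. Filled red points passed an adjusted p of 0.05 (edgeR): 3 in RNA and 6 in footprints, all to the left of 0, while Pole stood at 0.09 in both assays.

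The shift was not even over the libraries. As log2 differences from the control mean, the RNA medians of the 36 genes were -0.07, -0.07 and -0.18 for siKrr1 A, C and D, against -0.07, 0.05 and 0.04 for siGFP, siNC and Lipo. In RNA the siGFP control thus lay as low as siKrr1 A and C. In siKrr1 D, 34 of the 36 genes lay below the control mean, and it was the lowest of the 3 siKrr1 libraries for 27 genes, although siKrr1 A had the least Krr1 RNA. The footprint medians were -0.12, -0.12 and -0.17 for siKrr1 A, C and D, against -0.03, 0.02 and 0.01 for siGFP, siNC and Lipo. The siKrr1 and control medians did not overlap there.

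**Figure D2:**
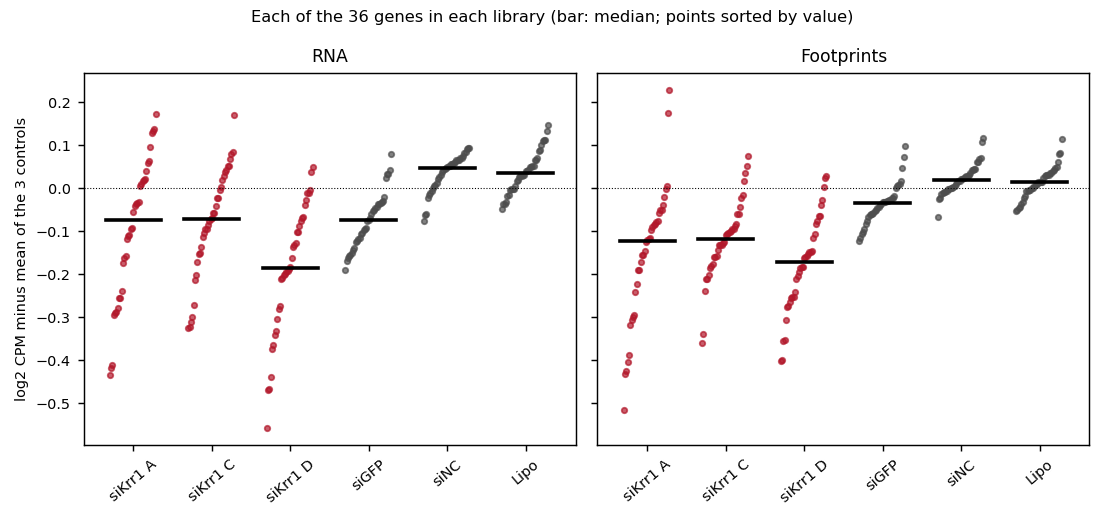
Each of the 36 genes (points, sorted within a library) as log2 CPM minus the mean of the 3 controls, in RNA (left) and footprints (right). Bars mark the median, which in RNA is -0.07 in siKrr1 A, siKrr1 C and siGFP and -0.18 in siKrr1 D, and in footprints is lower in each siKrr1 library than in each control.

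E2F factors are known to control many of these genes. Promoter sequences are shown for some genes whose RNA or footprints fell (Cdc6, Pola1 and Rrm2). They are also shown for Mcm5 and Mcm6, MCM subunits with several E2F-type matches. Left out are Pcna, Tk1 and Cdc45, which fell and had no match, and Mcm3 and Mcm7, which also had several. RefSeq promoter windows (GRCm38.p6, the build also named mm10, 250 bases before to 50 after the start site) were matched for 29 of the 36 genes. These windows were searched on both strands for TTTCCCGC, TTTGGCGC, TTTCGCGC and TTTGCCGC. A match stood in the window of 12 of these 29 genes (41.4%), beside 704 of 27025 genes (2.60%) over the whole promoter table, and 5 held 2 or more matches. In the sequences below, written 5′ to 3′ on the gene's strand, capitals mark the matches. Cdc6 lies at chr11:98907901-98908200 (+ strand), Pola1 at chrX:93632106-93632405 (- strand), Mcm5 at chr8:75109259-75109558 (+ strand), Mcm6 at chr1:128359656-128359955 (- strand) and Rrm2 at chr12:24708004-24708303 (+ strand). In Mcm5 and Mcm6 a match on each strand overlaps the other, which gives runs of 12 capitals.
Cdc6: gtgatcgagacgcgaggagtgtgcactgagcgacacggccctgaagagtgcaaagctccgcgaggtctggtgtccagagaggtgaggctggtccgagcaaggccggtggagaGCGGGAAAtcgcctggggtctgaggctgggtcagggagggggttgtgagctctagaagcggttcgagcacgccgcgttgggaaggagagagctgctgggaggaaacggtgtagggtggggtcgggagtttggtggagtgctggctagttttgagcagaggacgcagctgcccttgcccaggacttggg
Pola1: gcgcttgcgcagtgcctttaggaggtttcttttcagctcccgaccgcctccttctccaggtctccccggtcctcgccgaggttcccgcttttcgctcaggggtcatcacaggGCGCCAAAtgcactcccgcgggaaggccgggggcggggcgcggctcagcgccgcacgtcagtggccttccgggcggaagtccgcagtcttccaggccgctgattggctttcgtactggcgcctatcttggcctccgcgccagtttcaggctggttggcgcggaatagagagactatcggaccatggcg
Mcm5: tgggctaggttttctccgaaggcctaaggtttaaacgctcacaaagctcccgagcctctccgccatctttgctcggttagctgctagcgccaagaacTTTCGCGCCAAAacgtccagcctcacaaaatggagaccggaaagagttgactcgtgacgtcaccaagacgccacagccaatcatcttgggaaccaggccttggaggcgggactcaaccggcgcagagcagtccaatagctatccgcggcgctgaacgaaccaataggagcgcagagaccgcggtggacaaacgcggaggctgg
Mcm6: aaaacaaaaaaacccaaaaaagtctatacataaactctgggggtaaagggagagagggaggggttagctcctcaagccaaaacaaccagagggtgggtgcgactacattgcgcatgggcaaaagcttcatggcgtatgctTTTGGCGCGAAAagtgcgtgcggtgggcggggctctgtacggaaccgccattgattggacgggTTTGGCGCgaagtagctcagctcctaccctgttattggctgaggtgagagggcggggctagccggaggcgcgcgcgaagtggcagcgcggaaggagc
Rrm2: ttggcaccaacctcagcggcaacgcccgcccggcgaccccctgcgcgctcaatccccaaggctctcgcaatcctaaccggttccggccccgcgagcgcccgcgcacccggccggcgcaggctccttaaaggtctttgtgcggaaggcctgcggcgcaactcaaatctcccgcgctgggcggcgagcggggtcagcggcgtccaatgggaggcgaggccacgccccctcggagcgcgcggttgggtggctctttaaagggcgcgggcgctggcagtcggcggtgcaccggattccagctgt
Of the 7 genes that fell in either assay, 6 had a window, and 2 of these (Cdc6 and Pola1) held a match. No match was found in the windows of Pcna, Rrm2, Tk1 and Cdc45, which says only that these letters are not in this window. The Cdc6 match begins 138 bases before the start site of its window, and so does that of Pola1. For both genes that start site lies inside the annotated gene, whose outer end is farther upstream (position 98907709 for Cdc6 and 93632387 for Pola1), so both matches lie within the gene body.

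Of the 4 genes of nucleotide supply, 2 fell in RNA and in footprints, as did 1.34% of all genes tested in both. All 4 had log2 fold changes below 0 in both assays, beside 50.2% of all genes in RNA and 48.5% in footprints. Rrm2, the small subunit of ribonucleotide reductase, which turns ribonucleotides into deoxyribonucleotides, had 327.2, 366.2 and 364.2 CPM of RNA in siKrr1 A, C and D, against 429.2, 450.4 and 447.2 CPM in siGFP, siNC and Lipo. Its footprints were at 584.2, 611.5 and 605.8 CPM in siKrr1 A, C and D, against 782.5, 773.9 and 763.1 CPM in the controls. The groups did not overlap in either assay. Rrm2 stood at a log2 fold change of -0.33 ± 0.07 (SE) in RNA (edgeR adjusted p = 0.0277) and -0.36 ± 0.05 in footprints (edgeR adjusted p = 0.00284). In RNA the edgeR adjusted p was 0.0768 without siKrr1 A and 0.0824, 0.127 and 0.13 without siGFP, siNC and Lipo. In footprints it was between 0.00177 and 0.0307 with any library left out.

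Tk1, the cytosolic thymidine kinase that salvages thymidine, had 65.05, 69.66 and 58.73 CPM of RNA in siKrr1 A, C and D, against 88.48, 82.74 and 88.21 CPM in siGFP, siNC and Lipo. Its footprints were at 55.01, 61.32 and 59.59 CPM in siKrr1 libraries, against 73.76, 85.36 and 77.43 CPM in controls. Every siKrr1 library was below every control. Tk1 had a log2 fold change of -0.42 ± 0.08 (SE) in RNA (edgeR adjusted p = 0.0182) and -0.43 ± 0.08 in footprints (edgeR adjusted p = 0.00976), the lowest of the 36 genes in both assays. The edgeR adjusted p in RNA was 0.0886, 0.0585 and 0.0958 without siGFP, siNC and Lipo, and in footprints 0.065 without siNC and 0.0603 without Lipo. Rrm1, the large subunit of ribonucleotide reductase, averaged 316.2 ± 18.7 CPM of RNA in siKrr1 cells and 329.0 ± 18.9 CPM in controls (SD, n = 3 each), and the groups overlapped. Its footprints averaged 551.4 ± 22.7 CPM in siKrr1 cells and 614.9 ± 15.5 CPM in controls without overlap, a log2 fold change of -0.16 ± 0.05 that was not called (edgeR adjusted p = 0.105). Tyms, which makes thymidylate, stood at -0.07 ± 0.07 in RNA and -0.12 ± 0.06 in footprints (edgeR adjusted p = 0.651 and 0.255).

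Pcna, the sliding clamp, had 181.6, 180.9 and 161.2 CPM of RNA in siKrr1 A, C and D, against 208.2, 223.9 and 237.0 CPM in siGFP, siNC and Lipo, with no overlap. Its RNA fell by 0.35 ± 0.08 (SE) on the log2 scale (edgeR adjusted p = 0.0289). Each library but siKrr1 C was needed for that call, since the edgeR adjusted p was 0.0518 and 0.064 without siKrr1 A and D and 0.068, 0.112 and 0.15 without siGFP, siNC and Lipo. Pcna footprints were at 140.2, 157.5 and 134.1 CPM in siKrr1 libraries and 151.8, 167.0 and 161.6 CPM in controls, where siKrr1 C lay above siGFP. The footprint log2 fold change of -0.15 ± 0.07 was not called (edgeR adjusted p = 0.222).

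The 5 subunits of replication factor C, which opens and loads the clamp, held no call. Rfc1, its large subunit, had 74.8%, 79.9% and 98.1% of the controls' mean RNA in siKrr1 A, C and D, a log2 fold change of -0.25 ± 0.10 (edgeR adjusted p = 0.179; 0.0384 without siKrr1 D). Rfc2 and Rfc3 stood at -0.20 and -0.13 in RNA and -0.19 and -0.17 in footprints. In footprints Rfc1, Rfc2 and Rfc3 each had the siKrr1 libraries below the controls, as did 13.6% of all genes tested. Rfc4 stood at 0.02 in RNA and -0.10 in footprints. Rfc5 stood at -0.05 and -0.01, with overlap in both assays.

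Among the origin licensing factors, Cdc6, the ATPase that works with the origin recognition complex to load the helicase, fell in footprints. They were at 81.82, 90.74 and 81.28 CPM in siKrr1 A, C and D, against 104.0, 109.5 and 107.9 CPM in siGFP, siNC and Lipo, a log2 fold change of -0.34 ± 0.07 (SE; edgeR adjusted p = 0.0132). The edgeR adjusted p was 0.0782 without siNC and 0.0832 without Lipo. Cdc6 RNA was at 88.17, 93.09 and 79.63 CPM in siKrr1 libraries, against 96.43, 111.6 and 116.7 CPM in controls. All 3 siKrr1 values were again the lower ones, but the log2 fold change of -0.32 ± 0.09 was not called (edgeR adjusted p = 0.0717; 0.0465 without siKrr1 C, and 0.0321 with DESeq2). Cdt1, its partner in loading, averaged 91.4% of the control mean in RNA and 92.0% in footprints, without overlap in either assay and without a call (edgeR adjusted p = 0.307 and 0.205). Orc1 and Orc6, subunits of the origin recognition complex, stood at -0.01 and 0.07 in RNA and -0.03 and -0.01 in footprints, and their groups overlapped.

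The MCM subunits form the ring-shaped helicase core, and differences among them were not tested. Mcm4 fell in footprints, with 498.5, 509.4 and 498.7 CPM in siKrr1 A, C and D, against 568.5, 596.6 and 604.5 CPM in siGFP, siNC and Lipo (log2 fold change -0.23 ± 0.05 SE; edgeR adjusted p = 0.0226). The edgeR adjusted p was 0.0555, 0.115 and 0.136 without siGFP, siNC and Lipo. Mcm4 RNA was at 257.3, 269.7 and 277.2 CPM in siKrr1 libraries, against 295.8, 322.0 and 293.9 CPM in controls, a log2 fold change of -0.18 ± 0.07 without a call (edgeR adjusted p = 0.164). Mcm2, Mcm5 and Mcm6 stood at -0.20, -0.16 and -0.17 in RNA and -0.12, -0.14 and -0.15 in footprints, uncalled. Of these, Mcm2 and Mcm5 had the siKrr1 libraries below the controls in both assays. That order held for 13.4% of all genes tested in RNA and 13.6% in footprints. Mcm3 stood at -0.01 in RNA and -0.07 in footprints and Mcm7 at 0.04 and -0.12, so the 6 subunits spanned -0.20 to 0.04 in RNA and -0.23 to -0.07 in footprints.

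Of the 6 factors that turn the loaded ring into an active helicase, 1 fell in footprints (2.68% of all genes tested did) and 0 in RNA, where 1 had an unadjusted p under 0.05 with edgeR and DESeq2 also called none. Cdc45, which binds the MCM ring to form the active helicase, had 70.14, 74.60 and 69.83 CPM of footprints in siKrr1 A, C and D, against 90.78, 85.00 and 83.35 CPM in siGFP, siNC and Lipo. The footprint log2 fold change was -0.27 ± 0.06 (SE; edgeR adjusted p = 0.0335). The edgeR adjusted p was 0.0745 without siKrr1 D and 0.133, 0.117 and 0.11 without siGFP, siNC and Lipo. Its RNA was at 148.0, 143.6 and 133.5 CPM in siKrr1 libraries, against 142.2, 149.8 and 145.6 CPM in controls, an overlap with a log2 fold change of -0.04 ± 0.07 (edgeR adjusted p = 0.786). Gins1, Gins2, Gins3 and Gins4, the GINS subunits, stood at -0.21, -0.22, -0.23 and -0.14 in footprints and -0.17, -0.10, -0.11 and -0.03 in RNA. Mcm10, which acts with the assembled helicase at origin firing, stood at -0.23 in footprints and -0.24 in RNA (edgeR adjusted p = 0.078 and 0.182; 0.0374 and 0.0489 without siKrr1 C). Its footprints were called with DESeq2 (adjusted p = 0.0428) and with no filter on low counts (edgeR adjusted p = 0.027). For each of these 6 genes the siKrr1 footprint libraries lay below the controls, as they did for 13.6% of all genes tested. In RNA the groups overlapped for each of them.

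**Figure D3:**
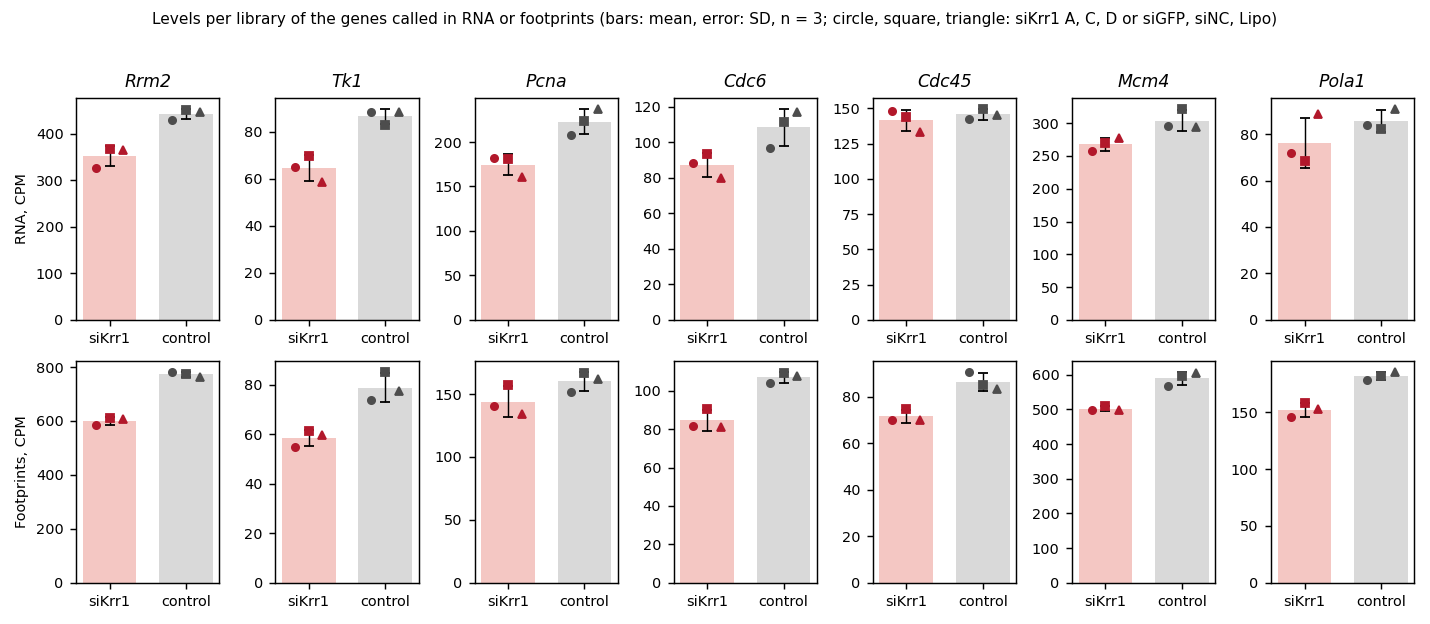
CPM in each library (points) of the 7 genes that fell in RNA (top row) or footprints (bottom row), with siKrr1 in red left of control in grey. Bars are means and error bars the SD (n = 3). Rrm2, Tk1, Cdc6 and Mcm4 are separated in both rows, Cdc45 and Pola1 in footprints but not in RNA, and Pcna in RNA but not in footprints.

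Among polymerase subunits, Pola1, the catalytic subunit of polymerase alpha, fell in footprints. They were at 145.8, 158.2 and 152.7 CPM in siKrr1 A, C and D, against 178.1, 181.7 and 185.8 CPM in siGFP, siNC and Lipo (log2 fold change -0.26 ± 0.06 SE; edgeR adjusted p = 0.023). The edgeR adjusted p was 0.0732, 0.104 and 0.135 without siGFP, siNC and Lipo. Pola1 RNA was at 71.74, 68.29 and 88.50 CPM in siKrr1 libraries, against 83.89, 82.15 and 90.92 CPM in controls, so siKrr1 D lay within the controls (-0.17 ± 0.10; edgeR adjusted p = 0.37). Prim1 and Prim2, the primase subunits, stood at -0.03 and -0.05 in RNA and -0.03 and -0.15 in footprints. Pold1 and Pole, the catalytic subunits of the polymerases that copy most of the lagging and leading strand, were the 2 members above 0 in footprints, at 0.03 ± 0.07 and 0.09 ± 0.07 (edgeR adjusted p = 0.856 and 0.525). In siKrr1 A, C and D, Pole had 117%, 105% and 97.2% of the controls' mean footprints.

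The 3 subunits of replication protein A, which coats single-stranded DNA, stood at -0.14, -0.07 and -0.10 in RNA and -0.17, -0.12 and -0.13 in footprints for Rpa1, Rpa2 and Rpa3. In footprints the siKrr1 libraries lay below the controls for each of these 3, as they did for 13.6% of all genes tested. None of the 3 was called in footprints (edgeR adjusted p = 0.102, 0.214 and 0.265). Lig1, the ligase that seals Okazaki fragments, was at 172.1, 190.0 and 150.9 CPM of RNA in siKrr1 A, C and D, against 200.3, 220.0 and 206.6 CPM in siGFP, siNC and Lipo. Its RNA log2 fold change of -0.29 ± 0.09 was not called with edgeR (adjusted p = 0.0853) and was called with DESeq2 (adjusted p = 0.045) or without siKrr1 C (edgeR adjusted p = 0.0262). Fen1, the flap nuclease that trims those fragments, averaged 274.3 ± 8.69 CPM of RNA in siKrr1 cells and 272.2 ± 3.79 CPM in controls (SD, n = 3 each).

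Rrm2 and Tk1 were called in both assays, Pcna in RNA and not in footprints, and Mcm4, Cdc6, Cdc45 and Pola1 in footprints and not in RNA. Of all genes tested in both assays, 1.34% were called lower in both. Whether the 2 responses differed was asked with translational efficiency, the footprint change minus the RNA change, tested as the interaction of assay and condition over the 12 libraries. No member was called (edgeR), and percent called was 0 over the 14236 genes tested, with 337 (2.37%) at an unadjusted p under 0.05 and 0.78% at that level and lower, among them 1 member, Cdc45. DESeq2 called 2 genes higher, 0 lower and no member. The median over the 36 genes was -0.04, beside 0.00 over all genes, and 25 members were below 0, beside 49.9% of all genes. Cdc45 was lowest at -0.23 ± 0.09 (SE) and Pcna highest at 0.20 ± 0.11 (edgeR adjusted p = 1 each). With the lysate as a block, 1 gene was called lower and 5 higher over all genes and again no member. Cdc45 then stood at -0.23 ± 0.07 and Pcna at 0.19 ± 0.07 (edgeR adjusted p = 0.527 and 0.612). At an unadjusted p under 0.05 (edgeR), the block fit held 975 genes and 4 members in either direction, beside 337 and 1 without the block. The fit without the block took libraries of the same lysate as independent, although each lysate was split. A difference between RNA and footprints was therefore not shown for any of the 36 genes, nor do these values show that the responses were alike.

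The ratio of footprint to RNA CPM spanned -1.21 to 1.09 (log2, controls) over the members. As log2 values, mean ± SD of 3 lysates, Pola1 had a ratio of 1.01 ± 0.21 in siKrr1 cells and 1.09 ± 0.06 in controls, Lig1 1.14 ± 0.17 and 0.98 ± 0.03, and Mcm4 0.91 ± 0.05 and 0.96 ± 0.08. At the low end were Rfc5 with -1.17 ± 0.14 in siKrr1 cells and -1.21 ± 0.07 in controls, Gins3 with -1.07 ± 0.08 and -0.94 ± 0.07, and Rfc2 with -0.89 ± 0.05 and -0.90 ± 0.04. The median over members was -0.10 in siKrr1 cells and -0.07 in controls, beside -0.19 and -0.20 over 13100 genes. Control ratios of members lay between the 14.3 percentile (Rfc5) and the 91.3 percentile (Pola1) of those genes. Subunits of 1 complex differed: in controls the RFC subunits ran from -1.21 for Rfc5 to 0.58 ± 0.07 for Rfc4, and the MCM subunits from -0.22 ± 0.01 for Mcm5 to 0.96 for Mcm4. Of the reductase subunits, Rrm1 was at 0.80 ± 0.04 in siKrr1 cells and 0.90 ± 0.07 in controls, and Rrm2 at 0.77 ± 0.06 and 0.81 ± 0.05. The ratio also depends on the share of a transcript that is coding, so it is not a rate of translation.

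**Figure D4:**
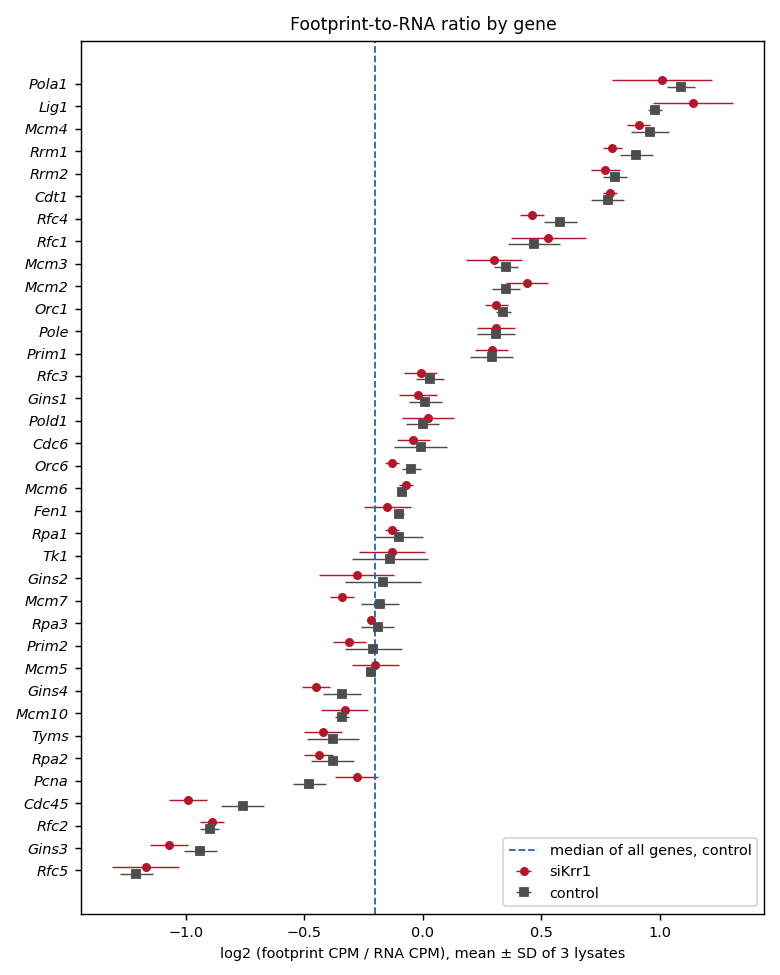
Log2 ratio of footprint CPM to RNA CPM for each gene (horizontal axis; mean and SD of 3 lysates), siKrr1 in red above control in grey. The dashed line is the control median of all genes (-0.20). Ratios run from about -1.21 for Rfc5 to 1.09 for Pola1 in controls. The siKrr1 and control means lie furthest apart for Cdc45 (-0.99 and -0.76) and Pcna (-0.28 and -0.48).

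Another 65 genes of replication and nucleotide synthesis, were all tested. In RNA 1 rose and 0 fell, where 2.69% and 2.11% of all genes tested did (edgeR). With DESeq2, 3 were called higher and 1 lower, beside 666 higher and 536 lower over all 14038 genes. At an unadjusted p under 0.05 (edgeR), 4 were higher and 7 lower in RNA. At that level 9.83% of all genes tested were lower, and 20.9% passed in either direction. In footprints 2 of the 65 rose and 2 fell, where 3.39% and 2.68% of all genes tested did. DESeq2 called 2 higher and 5 lower, beside 632 higher and 525 lower over all 13287 genes. At an unadjusted p under 0.05 (edgeR), 5 were higher and 13 lower in footprints. There 10.5% of all genes tested were lower, and 22.5% passed in either direction. The footprint log2 fold change was below 0 for 42 of the 65 genes, beside 48.5% of all genes tested. The siKrr1 footprint libraries lay below the controls for 17 and above them for 6, beside 13.6% and 14.3% of all genes tested. A difference between the 65 genes and the 36 was not tested. The median log2 fold change of the 65 was -0.05 in RNA and -0.04 in footprints. Orc5, a subunit of the origin recognition complex, rose in both assays, with 101.8, 111.4 and 107.4 CPM of RNA in siKrr1 A, C and D, against 72.39, 84.53 and 86.75 CPM in siGFP, siNC and Lipo (log2 fold change 0.40 ± 0.08; edgeR adjusted p = 0.026). In footprints Orc5 stood at 0.28 ± 0.07 (edgeR adjusted p = 0.0362). Cad, which starts pyrimidine synthesis, had 892.9, 721.9 and 725.4 CPM of footprints in siKrr1 A, C and D, against 599.3, 619.2 and 632.5 CPM in siGFP, siNC and Lipo, and rose by 0.34 ± 0.08 on the log2 scale (edgeR adjusted p = 0.0303). Umps, which makes uridine monophosphate at the end of that pathway, had 218.3, 227.5 and 238.2 CPM of footprints in siKrr1 libraries, against 287.8, 275.2 and 276.9 CPM in controls, and fell by 0.30 ± 0.05 (edgeR adjusted p = 0.0114). Rnaseh2b, a subunit of the nuclease that removes ribonucleotides from DNA, fell in footprints by 0.32 ± 0.08 (edgeR adjusted p = 0.0486; 0.0626 when libraries were scaled by totals alone). None of these 4 footprint calls, nor Orc5 in RNA, was kept without siGFP, siNC or Lipo, where their edgeR adjusted p was 0.0577 to 0.223. That of Orc5 was also 0.0644 and 0.0642 in footprints without siKrr1 C and D and 0.051 in RNA without siKrr1 D, and that of Rnaseh2b 0.0679 and 0.123 without siKrr1 A and D.

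The 36 genes lie on 13 chromosomes, with 7 on chromosome 5 and 6 on chromosome 8. The gene bodies of 13 overlap another annotated gene, among them Tk1 (with Afmid), Cdc45 (with Ufd1) and Rfc4 (with Eif4a2). The strand setting of the counting was not stated, so reads of overlapping genes may not be told apart. Pcna and Tyms also have named pseudogenes that could take reads.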

How the data were processed

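The deposited tables hold raw counts per gene symbol for 12 libraries, which the authors made using STAR, HTSeq and the mm10 genome according to the labels (per the submitters' processing notes). Tool versions, annotation, strand setting and trimming are not given in the sources at hand. Knockdown columns carry letters and the titles numbers, so these columns were assigned to a group and not to single titles. Of the uniquely mapped reads in the tables, 66.4% to 68.6% in RNA and 36.6% to 42.4% in footprints were on genes. Summary entries (reads on no feature, 31.2% to 33.4% and 57.5% to 63.3%, and ambiguous reads) stayed out.

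Each assay was tested over all genes in R 4.3.3 with edgeR 4.0.16 (quasi-likelihood test, TMM factors of 0.984 to 1.04, filterByExpr, Benjamini-Hochberg adjustment), with SEs derived from its F statistic. The assay by condition interaction over 12 libraries gave translational efficiency. CPM use the same effective library sizes. Scripts were tested on simulated data. Alternatives were RLE factors, library totals alone, no filter, DESeq2 1.42.0, each library left out and the lysate as a block.

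The labels say that each lysate was divided. Deviations from the group means over 6042 genes correlated between assays of 1 lysate with r of 0.265 to 0.71. With another lysate of the same group r was at most 0.0112. Deviations within a group cancel out. A positive r within a lysate thus lowers r with the others, so this contrast is partly built in. No pair of libraries of an assay was a duplicate (chi-square per degree of freedom 4.03 to 50.7). Footprint density per codon, planned, was not analysed here for want of coding lengths. The members, lists, tests and the rule for naming genes (all members, Krr1, and called genes of the list of 65) were chosen with earlier results of these data known.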

Additional observations from a re-analysis of the deposited data

How the results depend on the processing

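With 3 libraries per group the number of calls depended on the libraries, while the median over the 36 genes kept its sign in RNA and footprints under every alternative run. The number of members called lower was 5 in RNA with DESeq2 and ran from 0 to 6 in RNA and from 1 to 7 in footprints with a library left out. Over all genes, calls without a control library fell to 51 to 60 lower and 63 to 78 higher in RNA. In footprints they fell to 64 to 116 lower and 67 to 130 higher. Without a siKrr1 library they ran from 133 to 539 lower and 174 to 759 higher in RNA. In footprints they then ran from 256 to 546 lower and 293 to 791 higher. Library totals alone moved the split of all footprint calls to 285 lower and 579 higher, beside 356 and 450, and the median of all footprint values to 0.04. DESeq2 called 536 lower and 666 higher genes in RNA, beside 296 and 378, and no filter gave 477 and 582 in RNA and 616 and 784 in footprints. The translational efficiency median ran from -0.07 to 0.00 with a library left out. The lysate as a replicate block changed no member's call (Cdc45 at -0.23, Mcm7 at -0.16, Pcna at 0.19, Lig1 at 0.16 and the median at -0.04).

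No gene changed sign in an assay in which it was called. With library totals alone these were Mcm3 and Orc1 at 0.01 in RNA and Orc6 and Rfc5 at 0.02 in footprints. With a library left out, log2 fold changes in RNA ran from -0.01 to 0.11 for Mcm7, -0.05 to 0.12 for Pold1, -0.06 to 0.10 for Rfc4, -0.03 to 0.03 for Orc1, -0.06 to 0.05 for Mcm3, -0.07 to 0.01 for Cdc45, -0.09 to 0.04 for Gins4, -0.12 to 0.02 for Prim2, -0.08 to 0.03 for Rfc5 and -0.10 to 0.03 for Prim1. In footprints they ran from -0.08 to 0.01 for Prim1, -0.05 to 0.08 for Pold1, -0.02 to 0.01 for Rfc5 and -0.03 to 0.02 for Orc6, and the translational efficiency of Krr1, at -0.20 with all libraries, from -0.43 to 0.03. Members with translational efficiency below 0 numbered 25 with all libraries, 22 with library totals alone and 18 to 30 with a library left out. The cause was not tested beyond the loss of 1 library.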

Other observations

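Within the 29 genes with a promoter window, changes were set beside the presence of an E2F-type match. The 12 genes with a match had a median log2 fold change of -0.13 in RNA and -0.14 in footprints, and the 17 without had -0.07 and -0.13. Of the genes with a match 0 were called lower in RNA (edgeR) and 2 in footprints, and of those without 3 were called in each assay. These are descriptions, with no test.

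The control siGFP stood apart from the other 2 controls in RNA for these genes: 31 of the 36 lay below the control mean in siGFP, against 8 in siNC and 10 in Lipo. Its footprints did the same, with 28 genes below the mean, against 10 in siNC and 12 in Lipo. The differences were small. Medians of the 36 for siGFP, siNC and Lipo were -0.07, 0.05 and 0.04 in RNA and -0.03, 0.02 and 0.01 in footprints. Since siGFP is part of that mean, a low siGFP lifts the other controls above it, so the contrast is partly built in. Over all genes tested the medians of the 3 controls lay within 0.01 of 0 in both assays.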
